A study of Mus musculus with 6 samples.

Results

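Stretch sensors and targets of the YAP transcription cofactor are a set of 9 genes, taken from the per-mouse expression table by their symbols: Ctgf, Cyr61, Ankrd1, Fhl1, Fhl2, Csrp3, Xirp1, Xirp2 and Nrap. All 9 of 9 were found among the 24239 rows of the table, and all 9 passed the filter that left 11994 genes for testing. The study sequenced ventricular RNA of 6 male C57BL/6 mice aged 8 to 10 weeks, 3 per group. The pacing group had its hearts driven through a bipolar catheter in the esophagus, beside the atria, first for 3 min with beats 120 ms apart, then shortened by degrees to 80 ms for 45 min, then 3 min at 120 ms again; this was done daily for 8 days, the first 5 separated from the last 3 by a pause of 2. The sham group was left unpaced, and no mutant allele or drug is named for either group. The RNA is from whole ventricle, so the values are averages over all of its cells, and in such bulk samples fewer cells of a type and less RNA per cell cannot be told apart.

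The 9 genes sit at different points of the same problem, namely how heart muscle registers mechanical load. YAP and its relative TAZ are held in the cytoplasm by the Hippo kinase cascade; when cells are stretched or spread they enter the nucleus, bind TEAD proteins on DNA and switch on genes such as Ctgf, Cyr61 and Ankrd1. In the cardiomyocyte itself, LIM-domain proteins (Fhl1, Fhl2 and Csrp3) and ankyrin repeat proteins (Ankrd1) bind titin and the Z-disc and can move to the nucleus, while Xin and nebulin-related proteins (Xirp1, Xirp2 and Nrap) lie where myofibrils join the intercalated disc. Ankrd1, Fhl1 and Ctgf are among the genes used as readouts of load in the heart. They are also those of the 9 that lay higher in every paced mouse, so naming them is no test of a load response. Nppb, another gene known to respond to load, was level between groups (below).

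Expression is given as FPKM, fragments scaled by transcript length and library size, which allows levels of different genes to be compared per length. Csrp3 was the most abundant of the 9, with a mean over 6 mice of 1915 FPKM, followed by Fhl2 at 1505 and Ankrd1 at 896. In every mouse the level of Csrp3 was above that of Fhl2 and that of Fhl2 above that of Ankrd1. Far below came Nrap at 113 FPKM and Fhl1 at 73.1, then Xirp2 at 41.5, Ctgf at 40.0 and Xirp1 at 36.1, with Cyr61 lowest at 17.6. The mice overlapped among Xirp2, Ctgf and Xirp1, so their order is not separated by the spread: in sham mice each Ctgf value lay below each Xirp1 value, and in paced mice each Ctgf value lay above each Xirp1 value. From the depth of the libraries and the length of the principal transcript, Cyr61 rested on about 190 to 360 fragments a mouse and Fhl2 on about 14000 to 21000. The largest counting error of any value, as a coefficient of variation, was thus 7.28%, for Cyr61, and 5.03% for Ctgf.

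In paced ventricles 3 of the 9 genes lay higher in every mouse than in every sham mouse (Ctgf, Ankrd1 and Fhl1) and 2 lay lower in every mouse (Fhl2 and Csrp3), while the groups overlapped in the other 4 (Cyr61, Xirp1, Xirp2 and Nrap). Below, the values of a group are listed in the order of its replicates 1, 2 and 3. Over all 11994 genes, 6.24% had groups that did not overlap with pacing higher and 6.97% with pacing lower, 13.2% in all. None of the 9 passed at an adjusted p under 0.05 in limma, a linear model fitted across all genes, and none of all genes tested did (0%), with a lowest adjusted p of 0.107. At an unadjusted p under 0.05, 3 of the 9 were higher (5.17% of all genes) and 1, Fhl2, was lower (3.69%), against 8.85% of all genes in either direction. A q-value under 0.05 in the authors' deposited table called 1 of the 9, Ctgf, as higher. Of all its 24341 rows, 1.23% were called higher and 1.38% in either direction. Those rows include genes below the filter used here, so this is not the share among expressed genes. Pacing 1, the paced mouse with few lung transcripts, lay above all sham mice in 3 of the 9 genes (22.7% of all genes) and below them in 2 (25.5%). Of all genes, 48.3% lay outside the sham range in that mouse. The 3 and the 2 are the genes whose groups did not overlap, so their place follows from that. The median log2 fold change of the 9 was -0.06, and that of all genes tested was -0.01.

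**Figure D1:**
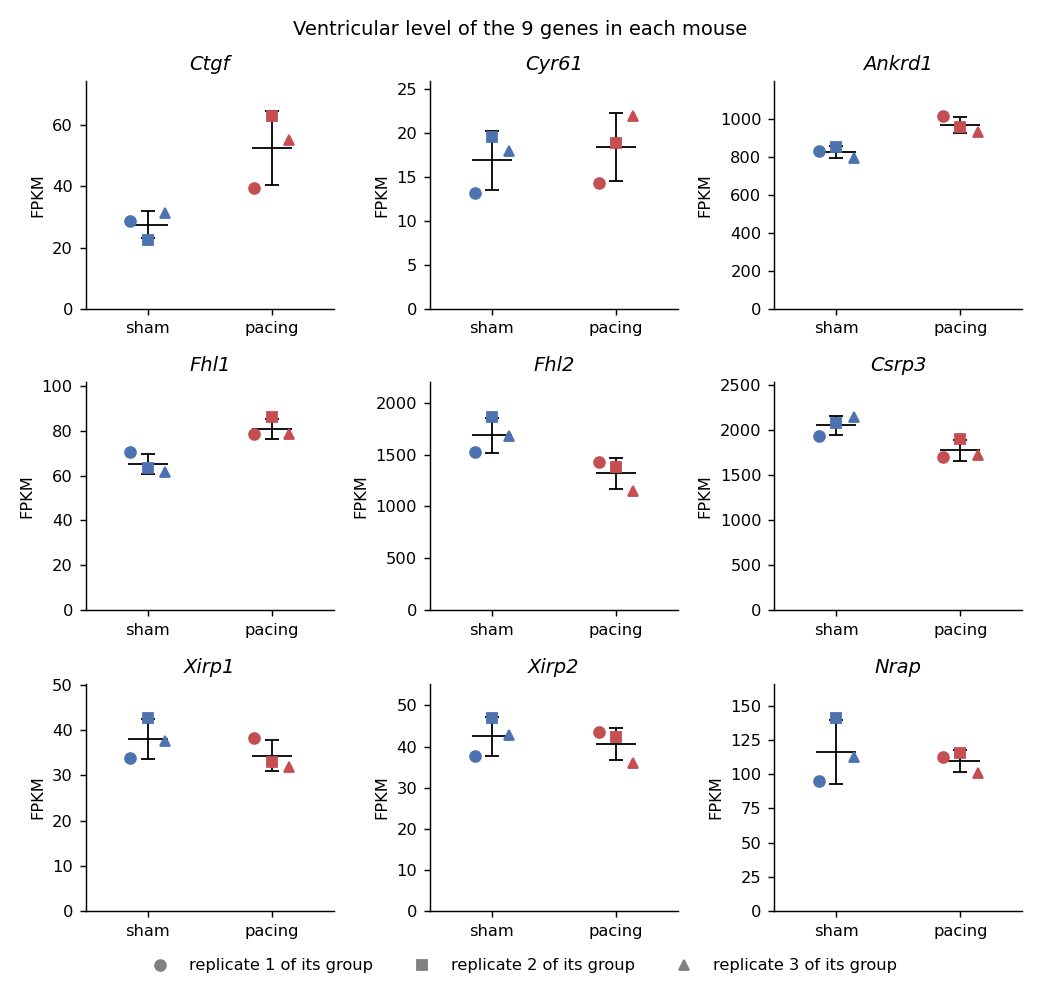
FPKM of each of the 9 genes in each mouse, on linear axes from 0; points are mice, with symbols for the replicate number, and the bars give the group mean and SD over 3 mice. The groups are apart for Ctgf, Ankrd1, Fhl1, Fhl2 and Csrp3 and overlap for Cyr61, Xirp1, Xirp2 and Nrap.

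The tissue makeup of the libraries differed. The summed FPKM of 7 atrial cardiomyocyte markers was 12710, 430.4 and 5317 across sham mice against 5761, 14700 and 10524 across paced mice. The sum of 6 adipocyte markers was 7.196 to 137 in sham mice and 174 to 418 in paced mice, and that of 8 fibroblast markers 776 to 1017 and 996 to 1308. For 8 lung epithelial markers it was at most 4.97 in sham mice and 2.45 in pacing 1, but 314 in pacing 2 and 1724 in pacing 3. All 9 markers of ventricular cardiomyocytes were detected in every mouse, with sums of 62755, 77003 and 82393 in the sham mice and 59497, 61986 and 61154 in the paced mice, and all 9 had a negative fold change. The sums for 8 skeletal muscle markers were 5.51 to 10.6 over the 6 mice, those for 6 endothelial markers 238 to 309 and those for 6 macrophage markers 100.8 to 198. For 6 smooth muscle and pericyte markers they were 245 to 281 in sham and 284 to 329 in paced mice, and for 6 mesothelial markers 20.7 to 61.6 and 40.2 to 84.2. Effective depth ran from 6212000 to 8816000 fragments. The part of these differences in the results below was not tested, beyond the values given beside them.

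**Figure D2:**
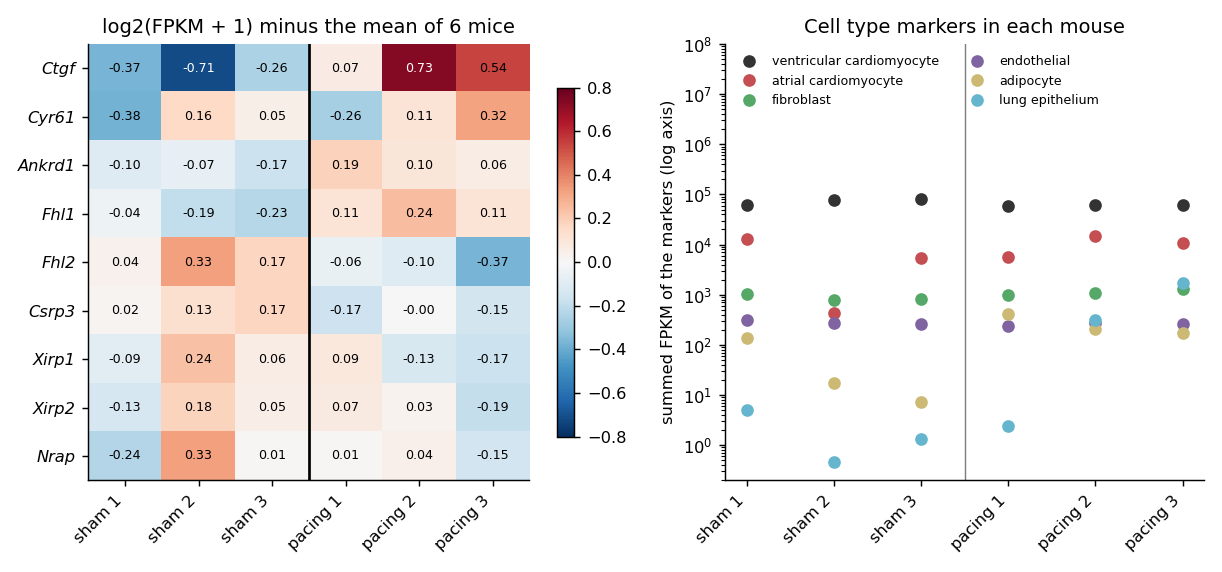
Left, log2(FPKM + 1) of each gene in each mouse minus its mean over the 6 mice (colour and printed value; columns are mice, with the line between sham and pacing). Right, the summed FPKM of the markers of 6 cell types in each mouse on a log axis. Ctgf spans the widest range of the 9 genes; atrial markers are lowest in sham 2, adipocyte markers in sham 2 and sham 3, and lung markers are high in pacing 2 and pacing 3.

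Ctgf and Cyr61 encode secreted matricellular proteins of the CCN family (now named Ccn2 and Ccn1) that bind integrins and growth factors and promote matrix production, and both are standard reporters of YAP activity. Ctgf lies on chromosome 10 from 24595442 to 24598682 (mm10, forward strand), and its principal transcript has 5 exons. It stood at 28.8, 22.5 and 31.3 FPKM across sham mice against 39.4, 63.1 and 55.2 across paced mice. Every paced mouse was above every sham mouse, with the closest pair, pacing 1 and sham 3, 8.09 FPKM apart. The means were 27.5 ± 4.53 (SD, n = 3) and 52.6 ± 12.1 (n = 3), a ratio of 1.91. The log2 fold change was 0.90 (95% interval 0.48 to 1.31), where limma ranked it 36 of 11994 genes, with an adjusted p of 0.306. The authors' deposited table gives a log2 fold change of 0.93 with a q-value of 0.003275 and calls the gene.

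The size of the Ctgf difference depended on which mice were included. By marker sums, pacing 2 and pacing 3 held more lung, atrial, mesothelial and fibroblast transcripts than pacing 1, and fewer adipocyte and macrophage ones. The parts of these in the Ctgf difference cannot be told apart. Without pacing 2 and pacing 3 the log2 fold change of Ctgf was 0.51. That pacing 1 lay above all 3 sham mice follows from the groups not overlapping, and 22.7% of all genes had this. Without pacing 1 it was 1.09 (limma adjusted p = 0.0696). With the level of the atrial genes Myl7, Myl4 and Sln as a covariate it was 0.69 (limma adjusted p = 0.531), and with that of adipocyte genes 0.97 (limma adjusted p = 1). Adipocyte marker sums were higher in every paced mouse than in every sham mouse, so that covariate largely follows the groups and cannot be separated from pacing. With it the standard error of Ctgf was 0.29, against 0.18 without, and the lowest limma adjusted p of all genes was 0.748. Fibroblast markers, from cells that make Ctgf, were also higher in paced mice: all 8 had a positive fold change, with a median of 0.42. Per 100 FPKM of those markers, Ctgf stood at 2.83, 2.90 and 3.83 across sham mice against 3.95, 5.83 and 4.22 across paced mice. On that scale the paced mice remained above the sham mice, with pacing 1 and sham 3 close together and a ratio of means of 1.47.

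Cyr61 lies on chromosome 3 from 145646971 to 145649985 (reverse strand; 5 exons). It stood at 13.1, 19.5 and 18.0 FPKM across sham mice against 14.3, 18.9 and 21.9 across paced mice. The groups overlapped, with 1 mouse of each group near 14 and the others near 20 FPKM. The log2 fold change was 0.11 (95% interval -0.30 to 0.52; limma adjusted p = 0.889), so the interval spans both signs. With the adipocyte covariate, which largely follows the groups, it was 0.62 (limma adjusted p = 1), and without pacing 2 and pacing 3 it was -0.21. Cyr61 thus differed from its family member Ctgf in that its groups overlapped; the difference between the 2 fold changes was not tested.

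Ankrd1 encodes the cardiac ankyrin repeat protein, which binds titin's spring region at the sarcomere's I-band and also enters the nucleus. The gene lies on chromosome 19 from 36111965 to 36119844 (reverse strand; 9 exons). It stood at 830, 853 and 791 FPKM across sham mice against 1016, 956 and 931 across paced mice. The spread within each group was small, with a coefficient of variation of 3.80% in sham and 4.52% in paced mice, and the closest pair of mice from the 2 groups was 77.9 FPKM apart. The means were 825 ± 31.4 and 968 ± 43.7 (SD, n = 3 each), 17.3% higher with pacing. The log2 fold change was 0.23 (95% interval 0.04 to 0.42; limma adjusted p = 0.51). Pacing 1 held the highest value of the 6.

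The start-site regions of Cyr61 and Ankrd1 are shown because both genes are TEAD targets by reputation while of the 2 only Ankrd1 had groups that did not overlap; that of Fhl2 is shown as the gene with the most negative fold change of the 9. Each run is the 250 bases before the RefSeq start site (GRCm38.p6, the assembly behind mm10), read 5′ to 3′ on the gene's own strand. Capitals mark the TEAD core motif CATTCC or its reverse complement, the CArG box bound by SRF, and the MEF2 site, each searched on both strands; A CArG or MEF2 site matches on both strands at once and is counted once, and no matches of different motifs overlap. The windows are chr3:145649986-145650235, chr19:36119845-36120094 and chr1:43196762-43197011, all on the reverse strand.
Cyr61: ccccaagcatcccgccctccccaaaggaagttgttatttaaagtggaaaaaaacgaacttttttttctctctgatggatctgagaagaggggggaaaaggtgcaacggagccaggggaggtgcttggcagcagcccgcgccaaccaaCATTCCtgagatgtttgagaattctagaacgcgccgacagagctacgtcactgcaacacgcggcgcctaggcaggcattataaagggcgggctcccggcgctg
Ankrd1: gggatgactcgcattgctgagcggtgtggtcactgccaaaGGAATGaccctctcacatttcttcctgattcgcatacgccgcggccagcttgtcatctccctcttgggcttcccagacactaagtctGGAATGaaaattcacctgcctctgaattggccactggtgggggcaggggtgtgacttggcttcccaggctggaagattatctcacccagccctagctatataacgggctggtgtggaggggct
Fhl2: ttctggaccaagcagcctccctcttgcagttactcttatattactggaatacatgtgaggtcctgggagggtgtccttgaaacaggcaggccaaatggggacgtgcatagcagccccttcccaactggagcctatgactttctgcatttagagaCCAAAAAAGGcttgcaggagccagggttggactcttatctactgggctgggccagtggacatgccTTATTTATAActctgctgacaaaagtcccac

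Cyr61 held 1 TEAD core, 103 to 98 bases before its start, and Ankrd1 held 2, at 210 to 205 and 123 to 118 bases, both on the opposite strand. Such a core was in 12.6% of the 32817 windows of this length over all genes. Fhl2 held no TEAD core but 1 CArG box, 96 to 87 bases before its start, a motif found in 1.47% of windows, and 1 MEF2 match, 31 to 22 bases before it, found in 2.92%. The set of start-site windows used here held 7 of the 9 genes, and for 6 the window lay at the deposited gene's 5′ end. Of those 6, Csrp3 and Nrap held none of the 3 motifs and Xirp2 held 1 MEF2 match. The remaining gene, Fhl1, had windows only at other start sites, and the one before base 56779683 held 1 CArG box. A further window of Fhl2, before its start site at base 43163961, also held 1 CArG box. The box was thus not particular to Fhl2 among the genes searched. Ctgf and Xirp1 were missing from that set, so the bases before their starts were not searched. A match is a description of letters and does not show that a factor binds there.

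Fhl1, Fhl2 and Csrp3 contain LIM domains, zinc-binding modules that join proteins. Fhl1 binds the titin spring and takes part in the hypertrophic response to load. It lies on chromosome X from 56731761 to 56793346 (forward strand; 7 exons). Its level was 70.5, 63.3 and 61.8 FPKM across sham mice against 78.5, 86.2 and 78.5 across paced mice. All paced mice were above all sham mice, and the gap between the closest mice, 7.98 FPKM, exceeded the SD of either group, 4.64 in sham and 4.45 in pacing. The means differed by 24.3%, with a log2 fold change of 0.31 (95% interval 0.12 to 0.50; limma adjusted p = 0.399).

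Fhl2 scaffolds kinases and metabolic enzymes at the titin filament and restrains growth signalling. It lies on chromosome 1 from 43123071 to 43196761 (reverse strand; 6 exons). Its level was 1526, 1864 and 1679 FPKM across sham mice against 1427, 1384 and 1147 across paced mice. Each paced mouse was below each sham mouse, with 99.3 FPKM between the closest, pacing 1 and sham 1, which is less than the SD of either group. The means were 1690 ± 169 and 1319 ± 151 (SD, n = 3 each), and the log2 fold change was -0.36 (95% interval -0.63 to -0.08; limma adjusted p = 0.484). Its fold change was thus opposite in sign to that of Fhl1, the other FHL protein among the 9.

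Csrp3 encodes muscle LIM protein, a Z-disc protein whose loss causes dilated cardiomyopathy in mice. It lies on chromosome 7 from 48830398 to 48848051 (reverse strand; 6 exons). Its level was 1938, 2081 and 2147 FPKM across sham mice against 1698, 1906 and 1721 across paced mice. The groups did not overlap, but pacing 2 and sham 1 were only 31.4 FPKM apart, against SDs of 107 and 114. The log2 fold change was -0.21 (95% interval -0.43 to 0.01; limma adjusted p = 0.577), and the interval includes 0.

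Fhl2 and Csrp3 are muscle transcripts, and the summed level of ventricular cardiomyocyte markers moved in the same direction. Relative to those markers, a scale chosen after the values were seen, Fhl2 stood at 2.43, 2.42 and 2.04 FPKM per 100 FPKM of markers across sham mice against 2.40, 2.23 and 1.88 across paced mice. The groups then overlapped, with a ratio of means of 0.944. Csrp3 on the same scale stood at 3.09, 2.70 and 2.61 and at 2.85, 3.08 and 2.81, again with overlap and a ratio of 1.04. For Ankrd1 and Fhl1 the groups did not overlap on this scale. Ankrd1 stood at 1.32, 1.11 and 0.961 in sham and 1.71, 1.54 and 1.52 in paced mice, a ratio of means of 1.41. Fhl1 stood at 0.112, 0.0823 and 0.0750 and at 0.132, 0.139 and 0.128, a ratio of 1.48. The sum of these markers was lower in every paced mouse than in every sham mouse. A gene higher in every paced mouse must therefore stay apart on this scale, so the outcome for Ankrd1 and Fhl1 was fixed in advance. The overlap of Fhl2 and Csrp3 was not fixed in this way. Per 100 FPKM of fibroblast markers, whose sums were mostly higher in paced mice, the groups overlapped for Ankrd1 and Fhl1, with ratios of means of 0.906 and 0.964. The groups stayed apart for Fhl2 and Csrp3, at 0.602 and 0.663, where the denominator moves the values in the same direction. The share of all genes that stay apart on either scale was not counted.

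**Figure D3:**
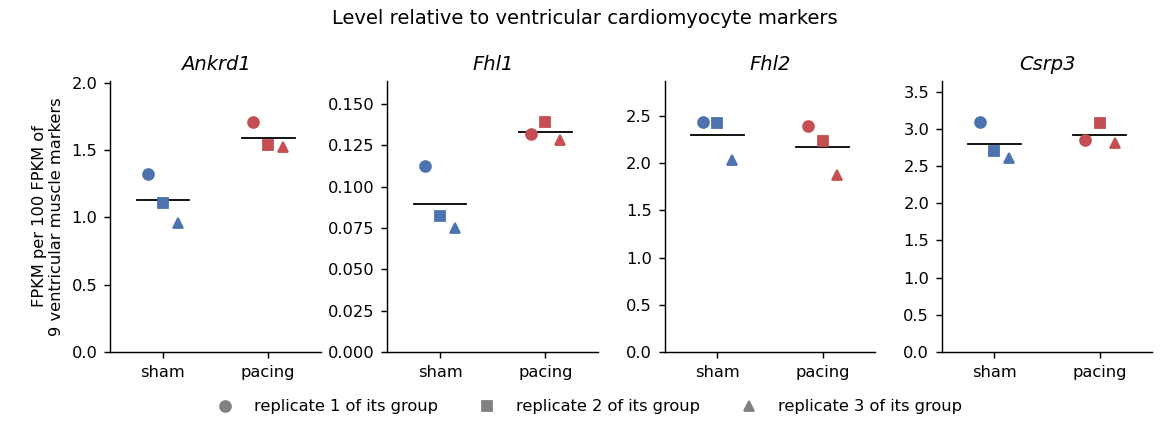
FPKM of Ankrd1, Fhl1, Fhl2 and Csrp3 per 100 summed FPKM of 9 ventricular cardiomyocyte markers, in each mouse (points) with the group mean (line), on linear axes from 0. The paced mice lie above the sham mice for Ankrd1 and Fhl1 and among them for Fhl2 and Csrp3.

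Xirp1 and Xirp2 encode Xin repeat proteins that bind actin at the intercalated disc, and Nrap encodes a nebulin-related anchoring protein that helps assemble myofibrils at the cell ends. Xirp1 lies on chromosome 9 from 120013755 to 120023598 (reverse strand; 3 exons), and its level was 33.8, 42.6 and 37.6 FPKM across sham mice against 38.2, 32.9 and 31.8 across paced mice. Xirp2 lies on chromosome 2 from 67446002 to 67526606 (forward strand; 9 exons), and its level was 37.6, 46.9 and 42.9 FPKM and 43.5, 42.2 and 36.1. Nrap lies on chromosome 19 from 56287938 to 56390038 (reverse strand; 42 exons), and its level was 94.9, 141 and 113 FPKM and 113, 115 and 100.6. In all 3 genes the groups overlapped, sham 2 held the highest value and pacing 1 was above sham 1.

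Their log2 fold changes were -0.14 for Xirp1 (95% interval -0.39 to 0.11), -0.06 for Xirp2 (-0.31 to 0.18) and -0.07 for Nrap (-0.38 to 0.25), with limma adjusted p of 0.758, 0.903 and 0.921. These intervals do not show that the genes were the same in both groups; they bound the difference at about the size seen for Fhl1 and Fhl2. The sham mice varied most in Nrap, with a coefficient of variation of 19.9% against 7.09% in paced mice. Over the 6 mice Xirp2 and Nrap had a Pearson r of 0.909 (exact permutation p = 0.0153, adjusted p = 0.195 over 36 pairs of the 9 genes) and a Spearman rho of 0.77 (exact permutation p = 0.103, adjusted p = 0.371). Without the 2 mice farthest from the median of Xirp2, r was 0.94. No pair of the 9 genes passed the adjustment by Pearson or Spearman correlation.

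**Figure D4:**
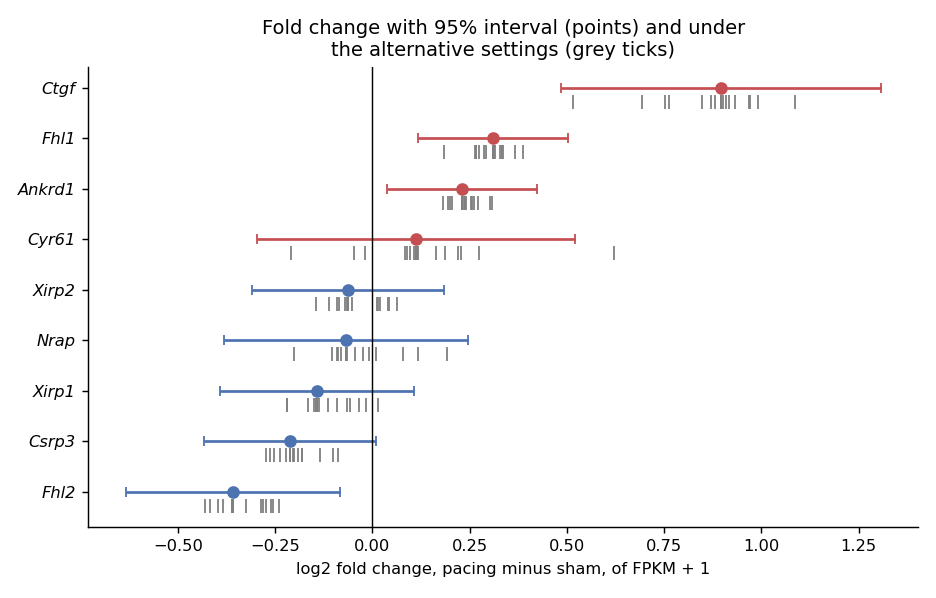
Fold change (paced against sham, log2 of FPKM + 1) of each of the 9 genes, with its 95% interval from limma (points and bars) and its value under 20 alternative settings (grey ticks). For Ctgf, Fhl1 and Ankrd1 all ticks lie above 0, for Fhl2 and Csrp3 all lie below 0, and for the other 4 genes they lie on both sides.

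Related pathways and families were described from lists, by counts and medians, each median with its range over the 20 alternative settings. Of 22 genes in a YAP and TEAD target signature, which includes Ctgf, Cyr61 and Ankrd1, 20 were tested and 15 had a positive fold change, where 48.2% of all genes did. Without the 3 shared genes it was 12 of 17, with a median log2 fold change of 0.15. The median of all 20 was 0.16 (range 0.12 to 0.24). At an unadjusted p under 0.05, 4 of the 20 were higher and 1 lower, and 0 passed after adjustment. The higher 4 were Ctgf, Ankrd1, the receptor kinase Axl and the membrane repair protein Myof. Axl stood at 26.0, 20.1 and 23.3 FPKM across sham mice against 31.0, 33.3 and 26.1 across paced mice, with the nearest mice almost level (log2 fold change 0.37, limma adjusted p = 0.484). The lower gene was Gadd45a, a growth arrest and DNA damage gene, at 16.9, 20.7 and 17.3 and at 13.5, 14.5 and 14.6 FPKM (log2 fold change -0.34, limma adjusted p = 0.428). Amotl2, an angiomotin that both binds YAP and is its target, stood at 13.6, 15.6 and 14.3 and at 15.9, 17.0 and 16.6 FPKM.

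Components of the Hippo pathway itself lay close to 0: of 27 tested, 10 were positive and 17 negative, with a median of -0.02, and 1 gene in each direction at an unadjusted p under 0.05. These were Vgll4, a TEAD-binding competitor of YAP, at 6.00 ± 0.553 in sham and 7.27 ± 0.267 FPKM in paced mice (SD, n = 3 each), and Amotl1, which holds YAP at junctions, at 12.8 ± 0.596 and 11.1 ± 0.388. Tead2 stood at 4.53 ± 0.405 and 5.39 ± 0.438 FPKM. The median of the Hippo list ranged from -0.05 to 0.04. It was highest when FPKM was rescaled to the same sum, where the median of all genes moved from -0.01 to 0.06 as well.

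In the CCN family, 4 of 6 were tested and all 4 were positive (median 0.50, range 0.11 to 0.68, lowest when genes under a mean of 5 FPKM were left out). The list includes Ctgf and Cyr61, and the other 2 tested had a median of 0.63. Nov, the family member CCN3, stood at 5.01, 1.84 and 1.38 FPKM across sham mice against 7.37, 5.69 and 7.30 across paced mice, so that sham 1, the sham mouse with most adipocyte and atrial transcripts, was nearest to the paced mice (log2 fold change 1.17, limma adjusted p = 0.399). Wisp2 overlapped, at 11.0 ± 2.47 and 11.6 ± 1.29. Of the muscle ankyrin repeat proteins, Ankrd23 overlapped too, at 139 ± 22.1 and 124 ± 21.8 FPKM, and the list's median was 0.03 over 2 genes (range -0.10 to 0.11).

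Among 8 LIM-only and muscle LIM proteins tested, 3 were positive and 5 negative (median -0.06, range -0.13 to 0.08, with positive values without sham 2, without pacing 2 and with the atrial covariate among others). The list includes Fhl1, Fhl2 and Csrp3. Without these, 2 of 5 were positive, with a median of -0.02. Lmcd1, a LIM protein of the calcineurin pathway, stood at 28.6, 24.99 and 28.8 FPKM across sham mice against 24.8, 24.1 and 20.3 across paced mice, without overlap (log2 fold change -0.24, limma adjusted p = 0.553). Csrp2, the smooth muscle relative of Csrp3, varied widely among sham mice, at 75.4, 18.9 and 33.5 FPKM, against 65.8, 65.8 and 68.2 in paced mice. Csrp1 stood at 48.2 ± 11.6 and 58.7 ± 4.89, and Lmo7 at 88.9 ± 18.8 and 81.0 ± 4.16. In the Xin and nebulin family, 1 of 5 tested was positive (median -0.07, range -0.17 to 0.02). The median was positive when rescaled to the same sum, without sham 2, without pacing 2 and pacing 3, and, at its highest, with the atrial covariate. Nebl (40.8 ± 9.35 and 36.3 ± 5.71) and Lasp1 (15.6 ± 1.97 and 17.1 ± 0.862) overlapped between groups. Only these 2 tested genes of the list are not among the 9. Of them 1 was positive, with a median of -0.01.

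Genes of the titin and Z-disc complex that Ankrd1, Fhl1, Fhl2 and Csrp3 bind were mostly negative, 12 of 17 with a median of -0.12 (range -0.16 to -0.01; -0.05 without sham 2, -0.04 with quantile normalization and -0.0075 with the adipocyte covariate), beside the ventricular cardiomyocyte markers, which had a median of -0.29. Titin itself, Ttn, stood at 28.8, 36.5 and 30.1 FPKM across sham mice against 28.4, 25.8 and 23.2 across paced mice (log2 fold change -0.29, limma adjusted p = 0.54). The calsarcin gene Myoz2, whose product tethers calcineurin at the Z-disc, stood at 1661 ± 237 and 1283 ± 61.9 FPKM. Myom1 stood at 315 ± 41.1 and 269 ± 22.4, and Pdlim3 at 12.9 ± 6.84 and 19.8 ± 2.38, with sham 1 at 20.8 among the paced values.

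Of 15 costamere and focal adhesion genes, which link sarcomeres to the membrane, 4 were positive and 11 negative (median -0.08, range -0.11 to -0.0017). The median was -0.02 without sham 2 and -0.01 with the atrial covariate. Zyx, the LIM protein zyxin that moves to stressed actin filaments, stood at 27.6, 20.4 and 21.4 FPKM across sham mice against 35.2, 31.1 and 34.4 across paced mice, without overlap (log2 fold change 0.53, limma adjusted p = 0.361). The sarcoglycan gene Sgcd stood at 23.5, 29.1 and 23.8 and at 19.5, 19.2 and 18.8 FPKM (log2 fold change -0.39, limma adjusted p = 0.396). Pxn stood at 15.6 ± 0.618 and 17.5 ± 0.829 and Lama2 at 18.6 ± 1.14 and 16.4 ± 0.907. Stretch-activated channels were split in direction, 5 of 9 positive with a median of 0.00 (range -0.09 to 0.07) and 0 past an unadjusted p of 0.05. The most abundant was Tmem63b, named here for its level after its values were seen, at 41.2 ± 4.71 in sham and 39.1 ± 3.98 FPKM in paced mice, near the level of Xirp2. Trpc1 stood at 2.85 ± 0.269 and 2.18 ± 0.533 FPKM, Kcnk2, the potassium channel TREK-1, at 1.29 ± 0.132 and 1.05 ± 0.0453, Trpv4 at 2.30 ± 0.202 and 2.66 ± 0.440 and Tmem63a at 7.81 ± 0.205 and 9.02 ± 1.504.

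The SRF and MRTF pathway, another route from actin tension to transcription, had 11 of 13 genes positive, where 48.2% of all genes were. Its median was 0.37 (range 0.09 to 0.44, with 0.19 without pacing 2 and 0.09 with the adipocyte covariate). At an unadjusted p under 0.05 in limma, where 5.17% of all genes were higher, 5 of the 13 were higher. These were Tagln at 36.1 ± 11.5 and 73.4 ± 12.2 FPKM, Cnn1 at 2.81 ± 2.53 and 7.76 ± 2.14, Acta2 at 45.9 ± 21.5 and 77.8 ± 14.1, Flna at 25.1 ± 3.50 and 32.5 ± 2.07, and the factor Srf itself, chosen to complete this count after its value was seen, at 17.7, 18.4 and 17.5 in sham and 21.0, 21.3 and 19.2 in paced mice. Tagln, Cnn1 and Acta2 are also smooth muscle markers in the list given above, where 4 of 6 were positive. At an unadjusted p under 0.05 in limma, 4 of those 6 markers were higher and 1 lower, and their median log2 fold change was 0.77. Among 6 genes known to respond to cardiac load, 5 were positive with a median of 0.21 (range -0.04 to 0.42; 0.0003 without pacing 2, 0.03 without sham 2 and -0.04 without pacing 2 and pacing 3). The positive genes include Nppb and Rcan1, named here after their values were seen, which were level between groups. Nppb stood at 114.7 ± 34.2 and 114.7 ± 15.4 FPKM (log2 fold change 0.03), and Rcan1 at 31.5 ± 1.35 and 31.5 ± 1.14 (log2 fold change 0.0014). The count of positive signs is thus no measure of a load response. Nppa, an atrial marker as well, overlapped widely at 3629 ± 3474 and 5307 ± 1993 FPKM. Myh7, the slow myosin, stood at 8.44, 19.5 and 16.3 and at 25.6, 18.7 and 30.8 FPKM, with pacing 2 below sham 2. Acta1 stood at 89.6 ± 9.95 and 129 ± 71.0 and Myh6 at 2662 ± 565 and 2314 ± 210.

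**Figure D5:**
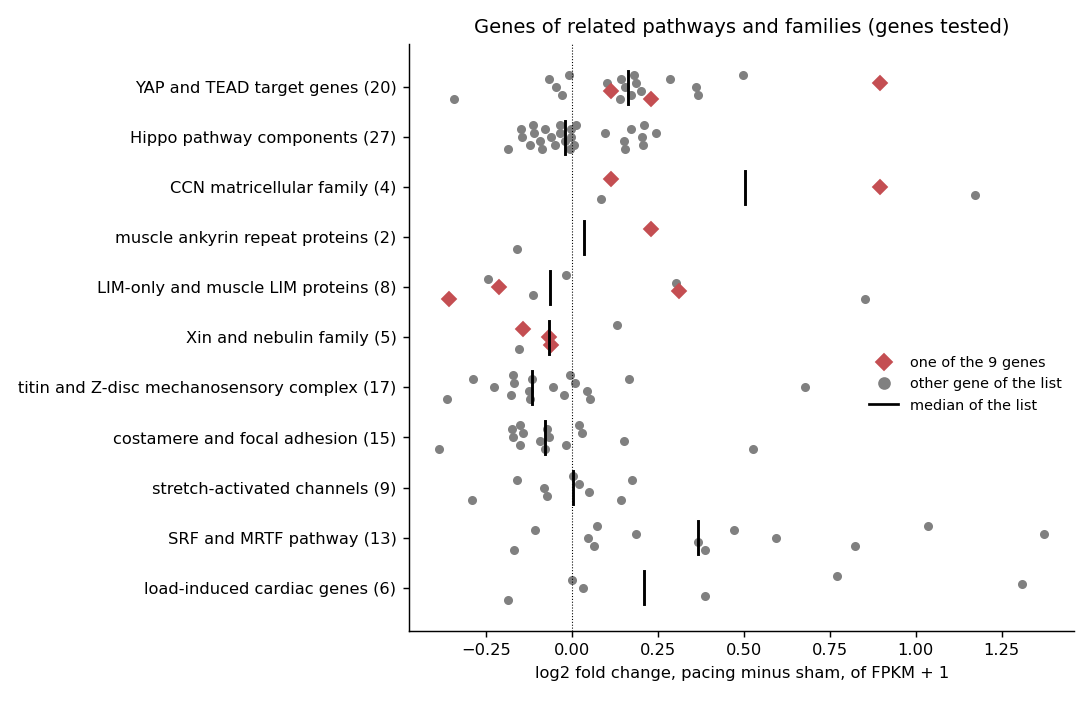
Log2 fold change of pacing minus sham for every tested gene of 11 lists (points; diamonds are those of the 9 genes that belong to a list, the bar is the list's median, and the number of genes tested is in brackets). Ctgf lies highest of the YAP and TEAD targets at 0.90, and the LIM-only list spans both signs.

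The genes whose levels followed each of the 9 most closely were sought among 8172 others with a mean of at least 5 FPKM, by Pearson r of log2(FPKM + 1) over the 6 mice, and the 3 with the highest r are given as a description. All values of r lay between 0.973 and 0.998. With 8172 candidates and only 6 mice, such values are likely for almost any gene, and r includes the difference between groups. Shared regulation was not tested. For Ctgf they were D19Bwg1357e, Tmem120a and Ube2l6, and for Cyr61 Naprt, Rfc4 and Fam212b. For Ankrd1 they were Gnptg, Samd9l and Corin, the protease that activates natriuretic peptides. For Fhl1 they were Cmklr1, Vgll4 and Dnajc10, Vgll4 being the TEAD cofactor named above, which stood at 6.60, 5.86 and 5.52 FPKM across sham mice against 7.15, 7.58 and 7.09 across paced mice. For Fhl2 they were Fdx1, Ctnna3, an alpha-catenin of the intercalated disc, and Rcan2, and for Csrp3 Azi2, Mtfr1l and Ndufa11. For Xirp1 they were Cxcl12, Hk2 and Prosc, for Xirp2 Thoc5, Filip1 and Nmt1, and for Nrap Lsg1, Cdc37l1 and Phldb1.

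Antisense genes overlap exons of Ctgf (Gm15270), Xirp2 (Gm13601) and Nrap (Gm17197 and Habp2) in the GENCODE annotation. Whether the authors' values use strand is not given in the sources used here, so reads of these pairs could not be separated. Habp2 was listed at the lowest value of the table, 0.01 FPKM, on average over the 6 mice.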

How the data were processed

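Ventricular polyA RNA of 3 sham and 3 paced mice was sequenced from stranded libraries (read pairs, 151 bases). The submitters' processing notes list mm10 and the tools Bowtie2 2.2.6, TopHat2 2.1.0, Cufflinks, Cuffdiff and FastQC 1.0.0; the annotation is not stated there. The authors deposited FPKM per gene and mouse (lowest value 0.01) and a comparison table with log2 fold changes and q-values, per the file headers. Deposited starts count from 0 and are printed from 1; strands are from GENCODE. 1 gene with a failed value was left out.

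Where mean FPKM reached 1, genes were compared on log2(FPKM + 1), which understates changes of low genes, with limma 3.58.1 in R 4.3.3 (eBayes with trend; two-sided; Benjamini-Hochberg over 11994 genes), tested on simulated data. Depth came from the steps of low FPKM values of 644 one-exon genes, of which 100% were whole within 0.05 fragment under 10 fragments; fragments per gene assume the principal transcript. Labels number replicates without naming animals, so p-values cover the spread between samples only. The 9 genes and all lists were chosen with earlier results of these data known. The text names the 9 genes, up to 4 others per list with the smallest p, and the 3 most alike per gene. The alternatives changed scaling, pseudocount, filter, eBayes settings, weights, a replicate block, covariates and the mice included.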

Additional observations from a re-analysis of the deposited data

How the results depend on the processing

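None of the 9 genes passed an adjusted p under 0.05, in either direction, under any of 20 alternatives to the limma fit. The lowest adjusted p were 0.0696 without pacing 1 and 0.0995 without sham 1, both for Ctgf. Ctgf, Ankrd1, Fhl1, Fhl2 and Csrp3 kept their direction in all 20, with log2 fold changes of 0.51 to 1.09, 0.18 to 0.31, 0.18 to 0.39, -0.43 to -0.24 and -0.27 to -0.09; Csrp3 was weakest with quantile normalization and Fhl1 with the adipocyte covariate. The others crossed 0, and the cause was not tested. With FPKM rescaled to the same sum, Xirp2 was 0.0142 and Nrap 0.0099, both below the median of all genes under that scaling, which moved from -0.0068 to 0.0615. Without pacing 2 and pacing 3, Cyr61 was -0.21, Xirp1 0.0154 and Xirp2 0.0393, with the lone paced mouse assumed to vary like the sham mice. With the atrial covariate Xirp2 was 0.0422 and Nrap 0.12, and with the adipocyte covariate Xirp2 was 0.0625, Nrap 0.19 and Cyr61 0.62, the highest value of Cyr61. Leaving out 1 mouse at a time gave -0.048 to 0.27 for Cyr61 (negative without sham 1 or pacing 3), -0.14 to 0.0183 for Xirp2 (positive without sham 2 or pacing 3) and -0.20 to 0.0796 (without sham 2) for Nrap.

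Over all genes, 0 were called in either direction, and 620 were higher and 442 lower at an unadjusted p under 0.05. Rescaling to the same sum made that split 969 and 148, centring on medians 514 and 609 and quantile normalization 537 and 581. Called higher were 6 genes without the filter, 1 with robust eBayes and 7 with the replicate block; leaving out 1 mouse gave 0 to 99 higher (99 without sham 1, 7 without pacing 1, 1 without pacing 3) and 0 to 1 lower (1 without sham 1 or pacing 1). Same-numbered mice deviated together in no pair (correlations of -0.125, -0.022 and -0.020), so the numbers were not taken as a pairing; with the replicate block Ctgf had an adjusted p of 0.206 and none of the 9 was called.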
